A study of Bos taurus with 8 samples.

Results

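The cluster of miR-424, miR-503, miR-542, miR-450a and miR-450b was followed in mammary tissue of heifers of a dairy and a beef breed. Its members were every entry of the bovine array whose name has the stem bta-miR-424, bta-miR-503, bta-miR-450a, bta-miR-450b or bta-miR-542 with any arm suffix, which gave 7 of the 763 miRNAs on the array. They are bta-miR-424-5p, bta-miR-424-3p, and, written without the prefix for the species as those are from here on, miR-503-5p, miR-503-3p, miR-542-5p, miR-450a and miR-450b, all from Bos taurus, and 14 of the 1657 probes measure them.

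Tissue came from udders collected at slaughter, from 4 Holstein-Friesian heifers (the dairy breed and the reference of the study's design) and 4 Limousin heifers (the beef breed and the test). All 8 animals were non-pregnant and healthy, and no treatment is named. The age given for each sample is 20 months, while the protocol speaks of 2 years. RNA of a whole piece of gland holds every cell type in it, so fewer cells of a type and less RNA per cell cannot be told apart. Each animal had its own 1-colour Agilent array, on which RNA labelled with a single dye binds short probes, and all values are spot brightness.

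MicroRNAs are cut from the arms of a hairpin and pair with messenger RNAs mainly through bases near their 5′ end, the seed. miR-424-5p, known as miR-322 in mice, has the seed of the miR-15 and miR-16 family and miR-503-5p a closely related one. The family holds back cell cycle and survival genes such as cyclins and BCL2. In the mouse mammary gland miR-424 and miR-503 have been tied to involution, the regression of the milk-secreting epithelium after weaning, downstream of TGF-beta. The heifers here had not calved, so that the tissue is a gland before any lactation or involution.

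The array annotation, in the UMD 3.1 build, places all 14 probes on chromosome X within 6606 bases, at chrX:18178911-18185516. In the order of that annotation miR-450b comes first, followed by a pair of sites for miR-450a, then miR-542, miR-503 and miR-424. The RefSeq gene table, whose assembly is ARS-UCD2.0, has separate genes MIR450A-1 and MIR450A-2 and the same order, with HPRT1 and PLAC1 as the neighbouring genes, so a signal of miR-450a is the sum of what both genes give. An entry of another name, miR-3601, overlaps the span of the cluster's genes in that table, and its signal was at the floor on all 8 arrays. Mature sequences were not used here, and the array's own probes, which are complementary to the miRNA, stand for the members.

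The probes are shown because the results of each arm rest on what its probe can bind. Each member has a shorter probe and one that is 1 base longer at its 3′ end, and the capital marks that added base.
miR-424-5p, 19 bases: tcaaaacatgaattgctgC
miR-424-3p, 15 bases: atagcagcgcctcaC
miR-542-5p, 17 bases: ctcgtgacatgatgatC
miR-503-5p, 15 bases: cagtactgttcccgC
miR-503-3p, 13 bases: ccgggcagcagaA
The longer miR-424-5p probe lies at chrX:18185461-18185479 and has 36.8% GC, the longer miR-424-3p probe at chrX:18185502-18185516 with 60.0% GC. The probe of miR-542-5p lies at chrX:18180159-18180174, that of miR-503-5p at chrX:18185111-18185124 and that of miR-503-3p at chrX:18185156-18185167. For the miR-542, miR-503 and miR-450b probes the annotated interval is 1 base shorter than the probe. For miR-424-3p the brighter probe is the shorter one, of 14 bases and 57.1% GC, at chrX:18185503-18185516. The arms of miR-424 thus differ in the kind of probe that reads them, long and rich in A and T for miR-424-5p, short and richer in G and C for miR-424-3p.

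The probes of miR-450a and miR-450b are closest to each other among all miRNAs on the array, at an edit distance of 4. They lie at chrX:18178911-18178929 for miR-450b and, for miR-450a, at both chrX:18179077-18179096 and chrX:18179244-18179263. Capitals mark the 6 of 20 positions at which the letters differ when the longer probes are laid side by side without a gap.
miR-450a, 20 bases: ATAtTaggaacaCatCgcaa
miR-450b, 20 bases: TATtCaggaacaTatTgcaa
No other member's longer probe had an entry of another miRNA nearer than an edit distance of 4; for miR-424-5p the nearest was that of miR-15a, at 5.

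A probe was counted as detected on an array when over 50% of its 30 spots were well above background by the scanner's own flag, and a miRNA when any of its probes was. Detection divided the cluster. miR-424-5p, miR-424-3p and miR-450a were detected on all 8 arrays, miR-542-5p on 2 of the 4 Holstein-Friesian and all 4 Limousin arrays, and miR-503-5p, miR-503-3p and miR-450b on none. That is 3 of 7 members detected on every array, where 30.4% of the 763 miRNAs were, and 3 of 7 on no array, where 60.7% were. By array, 3 members were detected on Holstein-Friesian 1 and 4, and 4 members on each of the other 6 arrays.

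**Figure D1:**
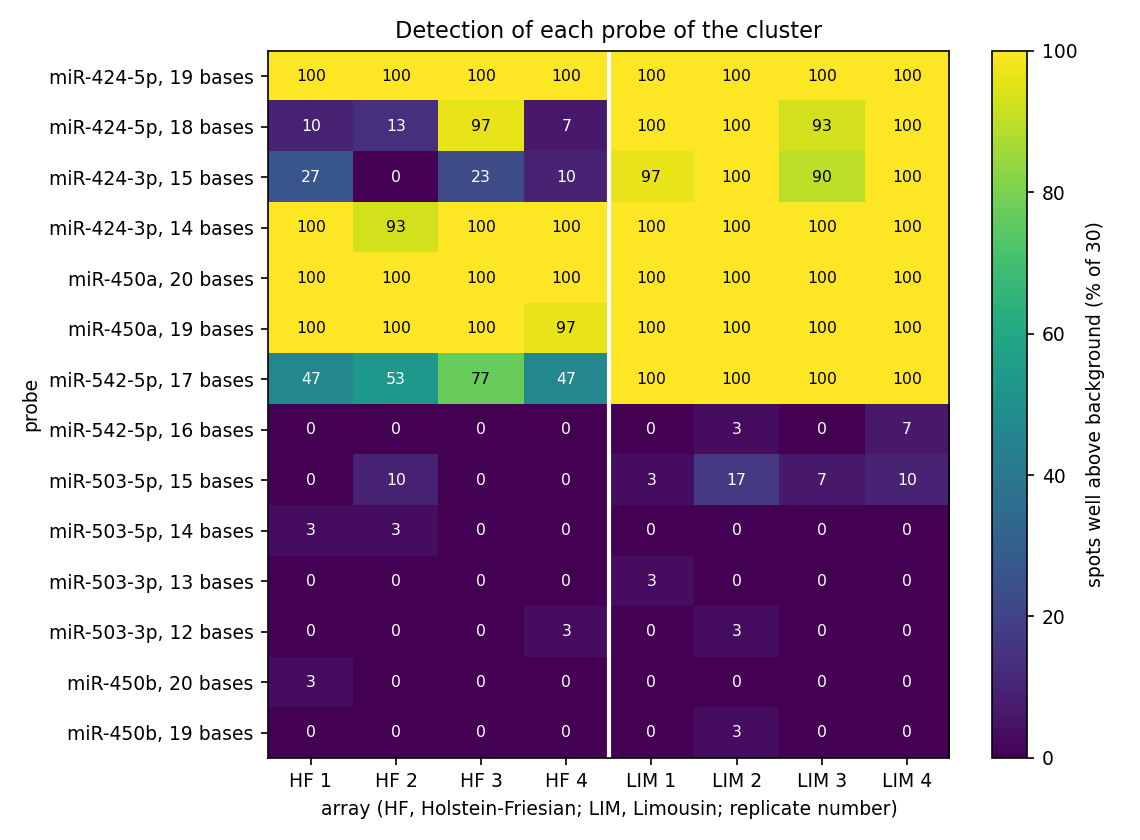
Share of the 30 spots of each probe (rows, with probe length) that were well above background on each of the 8 arrays (columns), as a percentage. The long probes of miR-424-5p and miR-450a read 100 on every array, the 17-base probe of miR-542-5p reads 46.7 to 76.7 in Holstein-Friesian and 100 in Limousin, and the miR-503 and miR-450b probes read at most 16.7.

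The second probes showed where the signal was close to the limit. The 18-base probe of miR-424-5p was detected on 1 of 4 Holstein-Friesian arrays, replicate 3, and on 4 of 4 Limousin arrays. The 15-base probe of miR-424-3p was detected on 0 of 4 Holstein-Friesian arrays, with 0 to 8 of 30 spots well above background, and on 4 of 4 Limousin arrays, with 27 to 30. On Holstein-Friesian 1 and 4, miR-542-5p missed detection with 14 of 30 spots, against 16 and 23 spots on replicates 2 and 3. Apart from the 18-base probe on Holstein-Friesian 3, with 29 spots, fewer spots of these probes were above background on the Holstein-Friesian arrays, which were also dimmer as a whole: 28.6% to 31.7% of all miRNA spots were well above background there and 31.8% to 35.5% in Limousin.

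To compare arrays, each signal was scaled by the 75th percentile of its array, taken over probes that every array detected, and put on a log2 scale, with each miRNA read by its brightest probe. In these units bta-miR-424-5p, the arm that carries the miR-15 and miR-16 type seed, stood at 8.16, 8.66, 8.64 and 8.19 in Holstein-Friesian replicates 1 to 4. In Limousin replicates 1 to 4 it stood at 8.98, 8.93, 8.87 and 9.07. Every Limousin value lay above every Holstein-Friesian value, and the Holstein-Friesian arrays fell into a low pair, replicates 1 and 4, and a higher pair, replicates 2 and 3. The means were 8.41 ± 0.27 (SD, n = 4) and 8.96 ± 0.08 (SD, n = 4), a log2 difference, Limousin minus Holstein-Friesian, of 0.55 (SE 0.14; 95% confidence interval 0.23 to 0.87; limma adjusted p = 0.0146). The 18-base probe gave 0.64 (SE 0.17), but it was not detected on 3 of the 4 Holstein-Friesian arrays, so this value is no separate measure of the difference.

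The rise of miR-424-5p passed without any 1 of the 8 arrays, at log2 differences of 0.47 to 0.63 and limma adjusted p of at most 0.0486. With each array corrected for a linear effect of probe GC content and length, the difference was 0.26 and no longer passed (limma adjusted p = 0.0651). The uncorrected difference of 0.55 also missed when all 763 miRNAs entered the test (limma adjusted p = 0.0528).

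The other arm, bta-miR-424-3p, stood at 6.44, 5.30, 5.46 and 6.54 in Holstein-Friesian replicates 1 to 4 and at 6.30, 5.89, 5.91 and 5.58 in Limousin replicates 1 to 4. The Holstein-Friesian values spanned the whole Limousin range, with replicates 1 and 4 high and 2 and 3 low. The means were 5.93 ± 0.64 (SD, n = 4) and 5.92 ± 0.30 (SD, n = 4). The log2 difference was -0.02 (SE 0.29; 95% confidence interval -0.66 to 0.62; limma adjusted p = 0.981), an interval that also holds the size of the miR-424-5p rise. The 15-base probe, below detection in Holstein-Friesian, gave 0.22 (SE 0.13), with overlapping breeds.

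**Figure D2:**
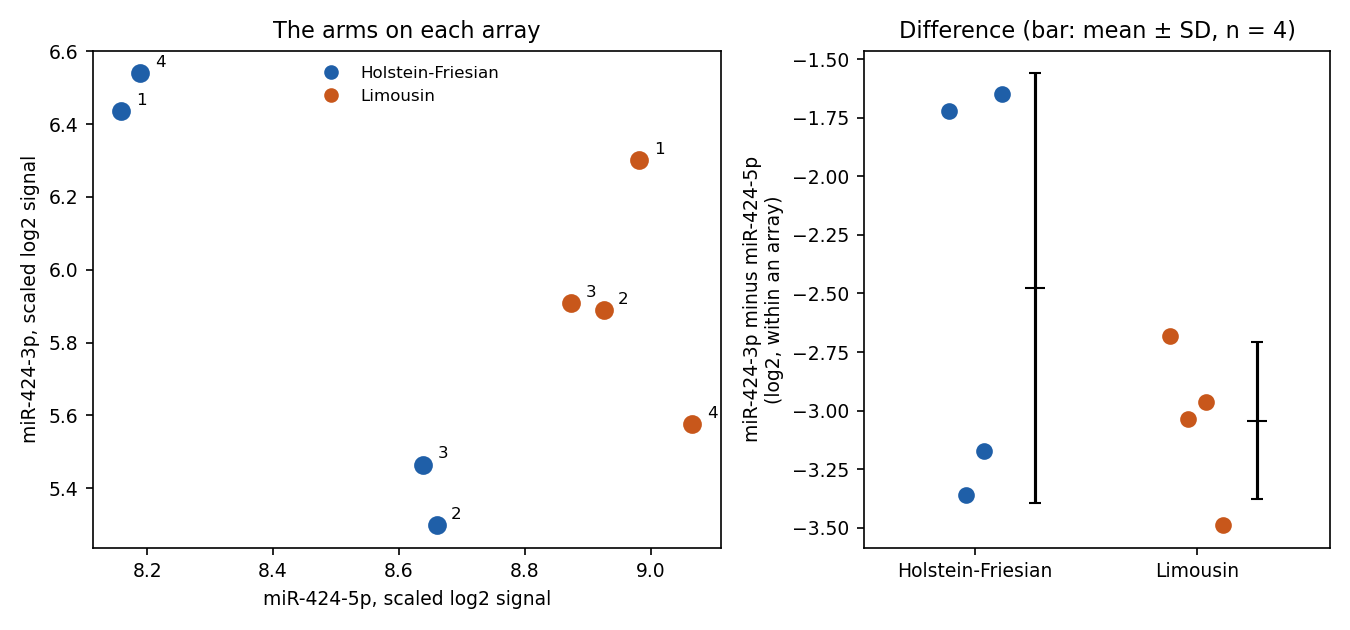
Left, scaled log2 signal of miR-424-3p (y axis) against miR-424-5p (x axis), 1 point for each array, with its replicate number; right, the log2 difference between the arms within each array, with mean ± SD (n = 4). In Holstein-Friesian the arrays with the lowest miR-424-5p, replicates 1 and 4, have the highest miR-424-3p, and the within-array differences of the breeds overlap.

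Among the Holstein-Friesian arrays the arms ran opposite to each other. Over the 8 arrays Pearson's r between the arms was -0.50, and -0.90 after each breed's mean was subtracted, as a description of 8 points that share their scaling. It was -0.99 over the 4 Holstein-Friesian arrays and -0.36 over the 4 Limousin arrays. Once probe composition had been corrected for, a check chosen after the values were seen, r over the 8 arrays was -0.21, and -0.90 after breed means were subtracted.

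A difference within an array is free of the scaling between arrays and asks whether the arms changed unequally between breeds. miR-424-3p minus miR-424-5p was -1.72, -3.36, -3.17 and -1.65 in Holstein-Friesian replicates 1 to 4, and -2.68, -3.04, -2.96 and -3.49 in Limousin replicates 1 to 4. The sizes depend on the probes and only the change between breeds is read. Holstein-Friesian replicates 1 and 4 lay above all Limousin values and replicates 2 and 3 among them. The mean was -2.48 ± 0.92 (SD, n = 4) in Holstein-Friesian and -3.04 ± 0.34 (SD, n = 4) in Limousin, a difference of -0.57 (SE 0.49) (two-sided exact permutation test, p = 0.371, adjusted p = 0.557 over 6 pairs of members). With the GC and length correction it was 0.018. With the normexp background model and without background correction it was -0.80 (exact permutation test, adjusted p = 0.0857 both times). After adjustment a single pair on its own cannot go below 0.171. With 4 arrays a breed the test could therefore not decide whether the arms changed unequally between breeds.

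miR-450a, whose signal sums a pair of neighbouring genes, stood at 5.94, 6.78, 6.25 and 6.20 in Holstein-Friesian replicates 1 to 4 and at 6.77, 6.75, 6.71 and 6.93 in Limousin replicates 1 to 4. Replicate 2 of Holstein-Friesian lay inside the Limousin range, and the other 3 lay below it. The means were 6.29 ± 0.35 (SD, n = 4) and 6.79 ± 0.10 (SD, n = 4), with a log2 difference of 0.50 (SE 0.17; 95% confidence interval 0.12 to 0.87; limma adjusted p = 0.0363). The 19-base probe gave 0.53 (SE 0.20).

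This call of miR-450a was close to the threshold. It was kept without Holstein-Friesian replicate 2, at 0.66 (limma adjusted p = 0.00153), and lost without any 1 of the other 7 arrays, at 0.38 to 0.52 (limma adjusted p from 0.0592 to 0.0993). With the GC and length correction the difference was 0.10 (limma adjusted p = 0.485), and it was 0.048 without background correction and -0.011 with the normexp background model (limma adjusted p = 0.744 and 0.947). When all 763 miRNAs entered the test, the limma adjusted p was 0.121.

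miR-542-5p stood at 4.74, 4.93, 4.61 and 4.73 in Holstein-Friesian replicates 1 to 4, where it was not detected on replicates 1 and 4, and at 4.81, 4.93, 4.99 and 5.04 in Limousin replicates 1 to 4. Replicate 2 of Holstein-Friesian again lay among the Limousin values. The log2 difference was 0.19 (SE 0.11; 95% confidence interval -0.06 to 0.44; limma adjusted p = 0.219). Its direction turned with the background setting, to -0.43 without correction and -0.47 with normexp (limma adjusted p = 0.0166 and 0.0126), and it passed as higher in Limousin under 5 other settings, among them no scaling, at 1.04 (adjusted p = 0.00146), and the deposited value table, at 0.46 (adjusted p = 0.0124).

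**Figure D3:**
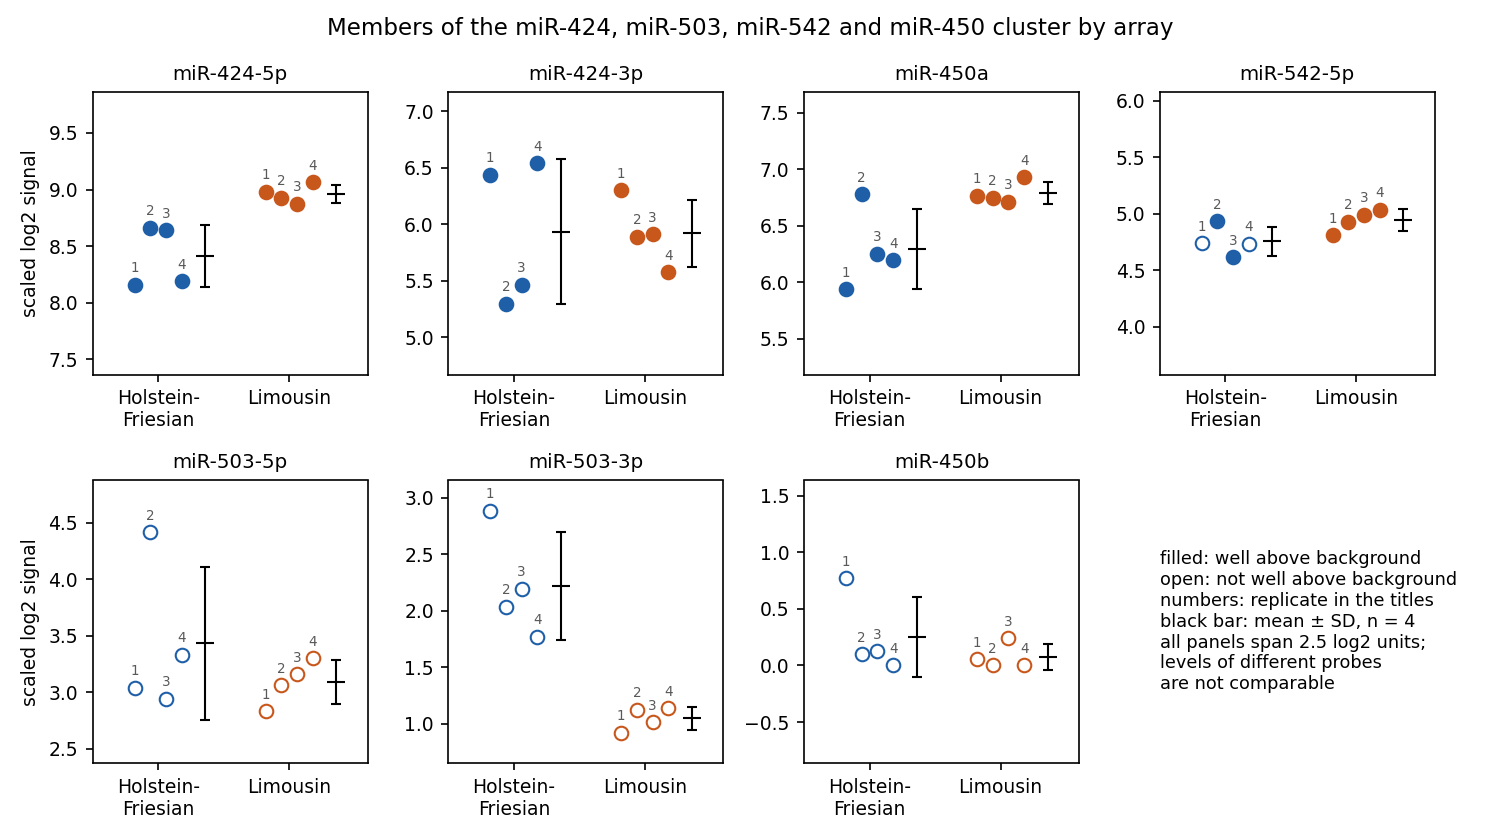
Scaled log2 signal of each of the 7 members on the 4 Holstein-Friesian and 4 Limousin arrays (points, numbered by replicate), with mean ± SD (n = 4); filled points were detected. Only miR-424-5p among the 4 tested members has all Limousin arrays above all Holstein-Friesian arrays.

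The remaining members had only an upper bound. miR-503-5p, the other member with a seed of the miR-15 type, had at most 5 of 30 spots well above background on any array, and its signal of 2.94 to 4.42 in Holstein-Friesian and 2.83 to 3.30 in Limousin was below that of the dimmest detected probe on each array. Agilent's own flag per miRNA, a looser rule, called it detected on Holstein-Friesian replicate 2 and Limousin replicates 2 and 4, and the authors' deposited table lists values above its undetected level on the same 3 arrays, -2.38, -3.51 and -3.31 on its log2 scale. miR-503-3p, at 1.77 to 2.88 in Holstein-Friesian and 0.92 to 1.14 in Limousin, and miR-450b, at 0 to 0.77 and 0 to 0.24, were detected by neither rule. The gap between the breeds for miR-503-3p lies wholly among signals not well above background and is no measured difference.

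Of the 7 members, 4 entered the test, which took 270 miRNAs, those detected throughout 1 breed or both. Among them 2 were higher in Limousin, 0 were lower and 2 did not pass. Over all 270 miRNAs 41.9% passed in either direction, 13.7% as higher and 28.1% as lower. Values of the breeds were fully apart for 1 of the 4 members, miR-424-5p, against 36.7% of all tested miRNAs. The median log2 difference was 0.34 over the 4 members and -0.07 over all 270. Members that entered on the strength of 1 breed, as miR-542-5p did, were selected partly by that breed's signal.

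These directions are relative to the scaling. Without scaling the median of all tested miRNAs was 0.79, and with scaling to the spike-in probes 0.73. The 75th percentile of signal was 557 to 939 in Holstein-Friesian and 943 to 1579 in Limousin. Spike-in signal was alike, at log2 12.56 to 12.79 and 12.62 to 12.76. The cause of the brighter miRNA signal in Limousin was not tested. Under both settings all 4 tested members passed as higher, among 173 higher and 2 or 3 lower. With the 75th percentile taken over all probes, 104 miRNAs were higher and 30 lower, after quantile normalization 54 and 42, against 37 and 76 in the setting used here. Set against the median of all tested miRNAs, the difference was 0.62 for miR-424-5p, 0.57 for miR-450a, 0.05 for miR-424-3p and 0.26 for miR-542-5p. These values are the same with and without scaling by construction, since a factor for an array shifts all its miRNAs alike. They could move under other settings. With the GC and length correction they were 0.41, 0.25, 0.42 and 0.29, and with normexp 0.78, 0.37, -0.02 and -0.08.

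**Figure D4:**
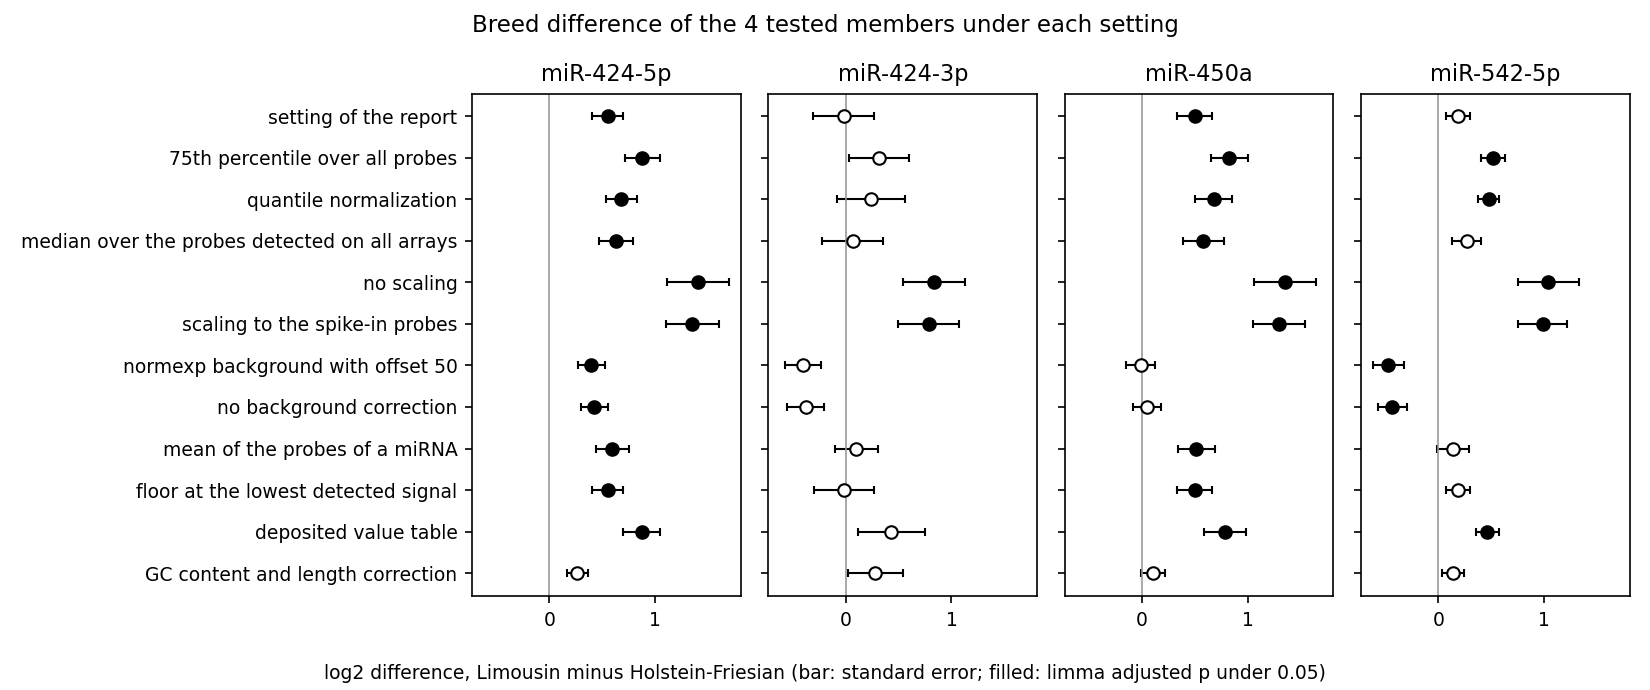
Log2 difference, Limousin minus Holstein-Friesian, of the 4 tested members (panels) under 12 settings (rows), with the standard error; filled points have a limma adjusted p under 0.05. miR-424-5p stays above 0 in every row shown and misses the threshold only after the GC and length correction, while miR-542-5p lies at -0.47 and -0.43 under the other background settings.

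The probe itself went with the direction. Tested miRNAs read by probes of 18 to 20 bases with 30 to 40% GC, the kind that reads miR-424-5p and miR-450a, numbered 27, of which 10 were higher and 1 was lower, with a median log2 difference of 0.27. Those read by probes of 13 to 15 bases with 50 to 65% GC, the kind that reads miR-424-3p, numbered 35, of which 1 was higher and 19 were lower, with a median of -0.45. These classes were drawn after the values were seen, and the part of probe composition in the results of the members was not tested beyond the correction given above.

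Beside the arms of miR-424, 5 more pairs of tested members were compared within arrays. The difference miR-424-5p minus miR-450a was 2.12 ± 0.23 (SD, n = 4) in Holstein-Friesian and 2.17 ± 0.03 (SD, n = 4) in Limousin, 0.05 apart (SE 0.11; two-sided exact permutation test, adjusted p = 0.714). That closeness depended on the background setting. With normexp the breeds were 0.41 apart, and without background correction 0.38 (exact permutation test, adjusted p = 0.0857 both times). For miR-424-5p and miR-450a minus miR-542-5p, the Limousin means were 0.36 (SE 0.15) and 0.31 (SE 0.15) above those of Holstein-Friesian, each with an exact permutation p of 0.0857 and an adjusted p of 0.257. Of the 6 pairs, 0 passed after adjustment and 0 had an unadjusted p under 0.05 in the exact permutation test, where the smallest p that 4 against 4 arrays allow is 0.0286. A single pair could not go below an adjusted p of 0.171, and 4 of the 6 pairs would have needed the smallest p to pass, so the count of 0 says little.

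Across the 8 arrays miR-450a followed miR-424-5p, at r = 0.91, and 0.78 after breed means were subtracted. By r over the 8 arrays it ranked 22 of the 269 other tested miRNAs. For miR-542-5p the values with miR-424-5p were 0.65 and 0.18, and with miR-450a 0.82 and 0.63. With the GC and length correction r between miR-424-5p and miR-450a was 0.46, and 0.29 within breeds. The 5 miRNAs outside the cluster whose values were most like those of miR-424-5p, among the 269 others tested, were miR-107 (r = 0.99), miR-376b (0.97), miR-16a (0.96), miR-106b (0.96) and miR-15a (0.94). After breed means were subtracted their r was 0.97, 0.91, 0.89, 0.92 and 0.78. miR-16a and miR-15a share its seed. All points share 8 arrays and 1 scaling, and over the 269 miRNAs r ran from -0.97 to 0.99 with a median of -0.12.

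The seed partners of miR-424-5p were all detected on every array. Their longer probes are shown with GCTGC in capitals, the stretch at the 3′ end of the probe that pairs near the 5′ end of the miRNA and that miR-424-5p has in common with some of them.
miR-424-5p: tcaaaacatgaattGCTGC
miR-15a: acaaaccattatgtGCTGC
miR-15b: tgtaaaccatgatgtGCTGC
miR-497: tacaaaccacagtgtGCTGC
The letters GCTGC occur in 2.49% of the longest probes of the 763 miRNAs, and their reverse complement GCAGC in 1.44%. The probes of miR-16a, miR-16b and miR-195 stop short of these letters. In Limousin 2 of the 6 partners rose and 0 fell, while 4 missed the threshold, beside 13.7% higher and 28.1% lower among all 270 miRNAs; their median log2 difference was 0.24. miR-15a rose by 0.46 (SE 0.13; limma adjusted p = 0.0174) and miR-16b by 0.42 (SE 0.14; limma adjusted p = 0.0330). miR-16a, at 0.33, did not overlap between the breeds but missed the threshold (limma adjusted p = 0.0519). miR-497, miR-15b and miR-195, at 0.14, -0.09 and -0.03, did not pass.

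Elsewhere on chromosome X the differences went both ways. In the miR-106a and miR-363 cluster, a relative of the growth-promoting miR-17 and miR-92 polycistron, 5 of 6 entries were tested; 0 rose, 1 fell and 4 did not pass. The one that fell was miR-363, at -1.07 (SE 0.19, limma adjusted p = 0.00345), while miR-20b was at -0.45 and miR-106a at 0.09. The miR-363 probe has 15 bases and 60% GC, the short kind described above, of which 19 of 35 were lower. The other tested entries, miR-19b and miR-92a, at 0.13 and -0.19, have no single annotated site on chromosome X. Their signal thus cannot be tied to this cluster alone. The annotation gives 42 miRNAs outside the miR-424 cluster a single site on chromosome X, miR-363, miR-20b, miR-106a and miR-18b among them. Of these 21 were tested, 3 were higher, 4 were lower and 14 did not pass, with a median log2 difference of -0.04. Over all 270 tested miRNAs 13.7% were higher and 28.1% lower, so these counts show nothing particular to chromosome X.

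Markers of the cell types in the gland were read beside these results. All 6 epithelial markers, the miR-200 family with miR-141 and miR-429 and the basal miR-205, were detected on every array and 0 of 6 passed, their summed signal lying at log2 14.12 to 14.29 in Holstein-Friesian and 14.20 to 14.33 in Limousin. For the counts that follow, 13.7% of all 270 tested miRNAs were higher and 28.1% lower. Of 6 stromal and smooth muscle entries 3 rose, miR-199a-3p, miR-199a-5p and miR-199b. The others, miR-145, miR-143 and miR-214, did not pass, at log2 differences of -0.23, -0.06 and 0.005, and miR-145 did not overlap between the breeds. The summed log2 signal of the 6 was 13.27 to 13.37 in Holstein-Friesian and 13.34 to 13.59 in Limousin. Of 4 tested leukocyte entries 2 rose, miR-142-5p and miR-155, while miR-150 and miR-223 did not pass, at log2 differences of 0.02 and -0.15. Sums of the leukocyte entries were 10.004 to 10.59 in Holstein-Friesian and 10.53 to 10.89 in Limousin, and miR-142-3p was detected on no array. These sums mostly follow the brightest entry, miR-142-5p, with means of 9.79 in Holstein-Friesian and 10.35 in Limousin. Breed means of miR-155, miR-150 and miR-223 were 5.99 to 7.34. The endothelial miR-126 arms did not pass, at log2 differences of 0.20 and 0.41. The erythroid miR-451 and the skeletal muscle miR-1 did not pass. Of 2 tested adipocyte entries 1, miR-193a-5p, fell, and its probe is short, with 13 bases and 69.2% GC. The liver marker miR-122 and the neural miR-124a were at the floor on all arrays. The part of these cell types in the rise of miR-424-5p and miR-450a was not tested.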

How the data were processed

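RNA of 4 Holstein-Friesian and 4 Limousin heifers was hybridised to 8 arrays on 1 slide, read in 1 scan, each breed at its own position index, so breed and position on the slide cannot be told apart. Per the file headers, the authors' scanner files hold spot intensity from Agilent Feature Extraction 10.10.1.1, background-subtracted and detrended, with no normalization between arrays. Each column of the authors' deposited value table is, to within 9.74e-06, log2 of the total signal that Agilent's software gives a miRNA, less a constant of its array. Column medians ran from -9.79 to -8.53. It served as an alternative.

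Control spots and flagged spots were left out and the rest averaged per probe. Signals were scaled to the 75th percentile, set to at least 1 and log2-transformed. limma 3.58.1 in R 4.3.3 (lmFit, eBayes) was fitted over 270 miRNAs by breed, and p-values were adjusted after Benjamini and Hochberg, with a threshold of 0.05. Pairs of members were compared by exact permutation over the 70 splits. The steps were tested on simulated data. The precision rests on the number of arrays. The labels call the samples biological replicates. The normexp model used an offset of 50.

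The named miRNAs are all members, the 5 most like miR-424-5p over 8 arrays, and members of lists of seed partners, chromosome X miRNAs and cell type markers; members and lists were chosen with earlier results of these data known. Alternatives covered scaling, background, probe summary, filter, floor, deposited values, variance model, array weights, replicate block, GC content with length, and each array left out. Replicate numbers 1 to 4 occur in both breeds; same-numbered arrays had deviations correlated at -0.31, -0.25, -0.45 and 0.32, so they were not treated as pairs.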

Additional observations from a re-analysis of the deposited data

Results flagged for a closer look

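Holstein-Friesian replicate 1 stood apart from the other 3 arrays of its breed for miR-450b, at 0.77 against 0 to 0.12 in scaled log2 signal, its gap to the nearest array being 0.839 of the range of the 4. Only 1 of its 30 spots was well above background, and the miRNA was detected on no array. In all 26 groups of 4 values were looked at for such a gap, and chance sets off about 1 in 20.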

How the results depend on the processing

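The miRNAs higher in Limousin numbered 37 in the setting used, 104 with the 75th percentile over all probes, 173 without scaling and with spike-in scaling, 81 in the deposited table and 20 with the replicate block and GC and length correction, and 24 to 56 without 1 array (24 without Limousin replicate 1 or 4, 56 without Holstein-Friesian replicate 2). Those lower numbered 76 in the setting used, 30 with the 75th percentile over all probes, 2 without scaling, 3 with spike-ins, 28 in the deposited table, 41 with the block and correction, 42 after quantile normalization, 146 with normexp, 143 without background correction, and 47 to 92 without 1 array (47 without Limousin replicate 1, 48 without Holstein-Friesian replicate 4). Members higher numbered 2, but 4 without scaling and with spike-ins, 3 with the 75th percentile over all probes, with quantile normalization and in the deposited table, 1 with normexp, without background correction and with the replicate block, 0 without a detection filter and with the GC and length correction, alone or with the block, and 1 to 2 without 1 array. Members lower numbered 0, and 1 with normexp, without background correction (miR-542-5p both times) and without a filter, where it was miR-503-3p, below background. Leaving the filter out adds miRNAs at the floor to the test. Among the 270 miRNAs tested, 26 were higher with normexp and 27 without background correction. There were 54 higher after quantile normalization, 25 with the replicate block and 26 with the GC and length correction. Without a filter 30 of 763 were higher and 61 lower. The replicate block ended the call of miR-450a (limma adjusted p = 0.0621) and kept that of miR-424-5p (0.0382). With the block and the GC and length correction together both missed (limma adjusted p = 0.538 for miR-450a and 0.142 for miR-424-5p).

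The sign of miR-424-3p, at -0.02, changed to 0.31 (75th percentile over all probes), 0.24 (quantile), 0.066 (median), 0.84 (no scaling, limma adjusted p = 0.0107), 0.78 (spike-ins, 0.0193), 0.10 (mean of probes), 0.43 (deposited table) and 0.28 (GC and length, alone or with the block), and ran from -0.23 to 0.19 without 1 array; on the other side it was -0.40 with normexp (limma adjusted p = 0.0513), -0.38 without background correction (0.0779) and -0.30 with array weights (0.288). miR-450a turned to -0.011 with normexp and miR-542-5p to -0.47 and -0.43 with normexp and without background correction. Within arrays 0 of 6 pairs passed in the setting used or the 14 alternatives, which shows no stability, since a single pair cannot pass after adjustment; signs changed after the GC and length correction for miR-424-3p minus miR-424-5p (0.018), minus miR-450a (0.18) and minus miR-542-5p (0.14), and for miR-450a minus miR-542-5p (-0.039); miR-424-3p minus miR-542-5p was also 0.068 with normexp and 0.056 without background correction, and -0.47 to 0.0057 without 1 array. miR-424-5p minus miR-450a ran from -0.027 to 0.14 without 1 array. With the replicate block, sign flips of 4 pairs cannot reach the threshold. For these changes the cause was not tested. Member detections summed to 30 over the arrays, 35 by Agilent's flag and 27 where all spots had to be above background.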

Other observations

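Across the 269 other tested miRNAs, likeness to miR-424-5p went with the GC content of the probe. Among the 67 with the lowest GC content, 23.8% to 44.4%, the median r with miR-424-5p over 8 arrays was 0.71, and among the 68 with the highest, 60% to 100%, it was -0.85. After breed means were subtracted these medians were 0.58 and -0.65. The 5 miRNAs most like miR-424-5p had probes of 35.0% to 52.9% GC.

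The probe pairs of a member were unequally alike. Over the 8 arrays r between the probes was 0.99 for miR-424-5p, 0.98 for miR-450a and 0.63 for miR-424-3p. Of the 4 Holstein-Friesian arrays, the 15-base probe of miR-424-3p was detected on 0 and the 18-base probe of miR-424-5p on 1.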
